A study of Oryza sativa Japonica Group with 4 samples.

Results

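The subject is the nuclear genes of the photosynthetic light reactions in rice seedlings, 38 genes chosen by locus identifier from the 28491 genes listed in at least 1 library. They comprised 8 genes for the chlorophyll-binding antenna of photosystem II (LHCB), 6 for the antenna of photosystem I (LHCA), 9 for photosystem I subunits, 8 for photosystem II subunits, and 7 for electron carriers and ATP synthase. All but LOC_Os08g02530, a photosystem II gene, were listed in each of the 4 libraries, and the other 37 passed the count filter. The genes were chosen by function, with no threshold on a measured value, though earlier results of these data were known. RNA came from the above-ground parts of seedlings with 4 leaves, grown in a sand and paddy soil mixture without stress treatment under a natural cycle of 14 h light and 10 h dark. The compared groups were a modd mutant taken from the POSTECH mutant collection, titled modd2 (2 libraries), and DongJin, the japonica cultivar used as wild type (2 libraries). The labels give neither the kind of mutation, nor the hour of harvest, nor whether a group's libraries stem from separate plants. The p-values thus measure only how these samples vary, which may be technical. Below, the mutant-labelled libraries are those labelled modd mutant.

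In the thylakoid membrane, LHCB and LHCA proteins hold chlorophyll and pass light energy to photosystems II and I. Photosystem II splits water, electrons move through the cytochrome complex and plastocyanin to photosystem I, and ferredoxin and its reductase hand them to NADP, while ATP synthase uses the proton gradient. Chloroplast DNA codes for the reaction-centre cores. The nuclear genes described here code for antenna proteins, other photosystem subunits, electron carriers, and parts of the cytochrome complex and ATP synthase. In leaves these transcripts are known to be abundant, and to depend on light, on the circadian clock and on the developmental state of the chloroplast.

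Libraries held between 5334814 and 5393972 estimated reads. MODD (LOC_Os03g11550), the mutated gene, was at 36.9 and 46.6 FPKM (reads scaled by transcript length and library size) in the mutant-labelled libraries, against 20.95 and 21.3 FPKM in DongJin, 0.93 ± 0.146 higher on the log2 scale (SE, 2 libraries each, edgeR adjusted p = 0.0272). A higher MODD transcript goes against the label if the mutation were to lower it, and the tables do not say where in the transcript the reads lay, so directions are given for the libraries as labelled. The seedlings' leaf identity was visible in the Rubisco small-subunit and activase genes, which summed to 12970 and 13710 FPKM in the mutant-labelled libraries and 13430 and 15610 FPKM in DongJin. DongJin replicate 2 stood apart on the leading principal component over the tested genes (60.2% of the variance), where the mutant-labelled libraries lay at -31.4 and -22.3, DongJin replicate 1 at 9.38 and DongJin replicate 2 at 44.3.

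The light-reaction genes were among the most abundant transcripts of the seedlings. Together they took 4.87% (95% Wilson interval 4.85 to 4.88) and 5.47% (5.46 to 5.49) of the reads in mutant-labelled replicates 1 and 2, and 5.55% (5.53 to 5.57) and 6.45% (6.43 to 6.48) in DongJin replicates 1 and 2. These intervals cover counting error only. By FPKM, 24 of the 37 ranked within the first 50 genes of each library and 27 within the first 100. The range was wide: averaged over the 4 libraries, CAB2R (LOC_Os01g41710), a chlorophyll a/b-binding protein gene of the LHCB group, was at 5081 FPKM and the LHCA gene LOC_Os09g26810 at 26.9 FPKM, 189 times less. Their transcripts were shorter than usual, with a median length of 1236 bases against 1751 bases over all tested genes. Chromosome 7 carried 10 of the 38 (26.3%), and 7.45% of all tested genes.

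**Figure D1:**
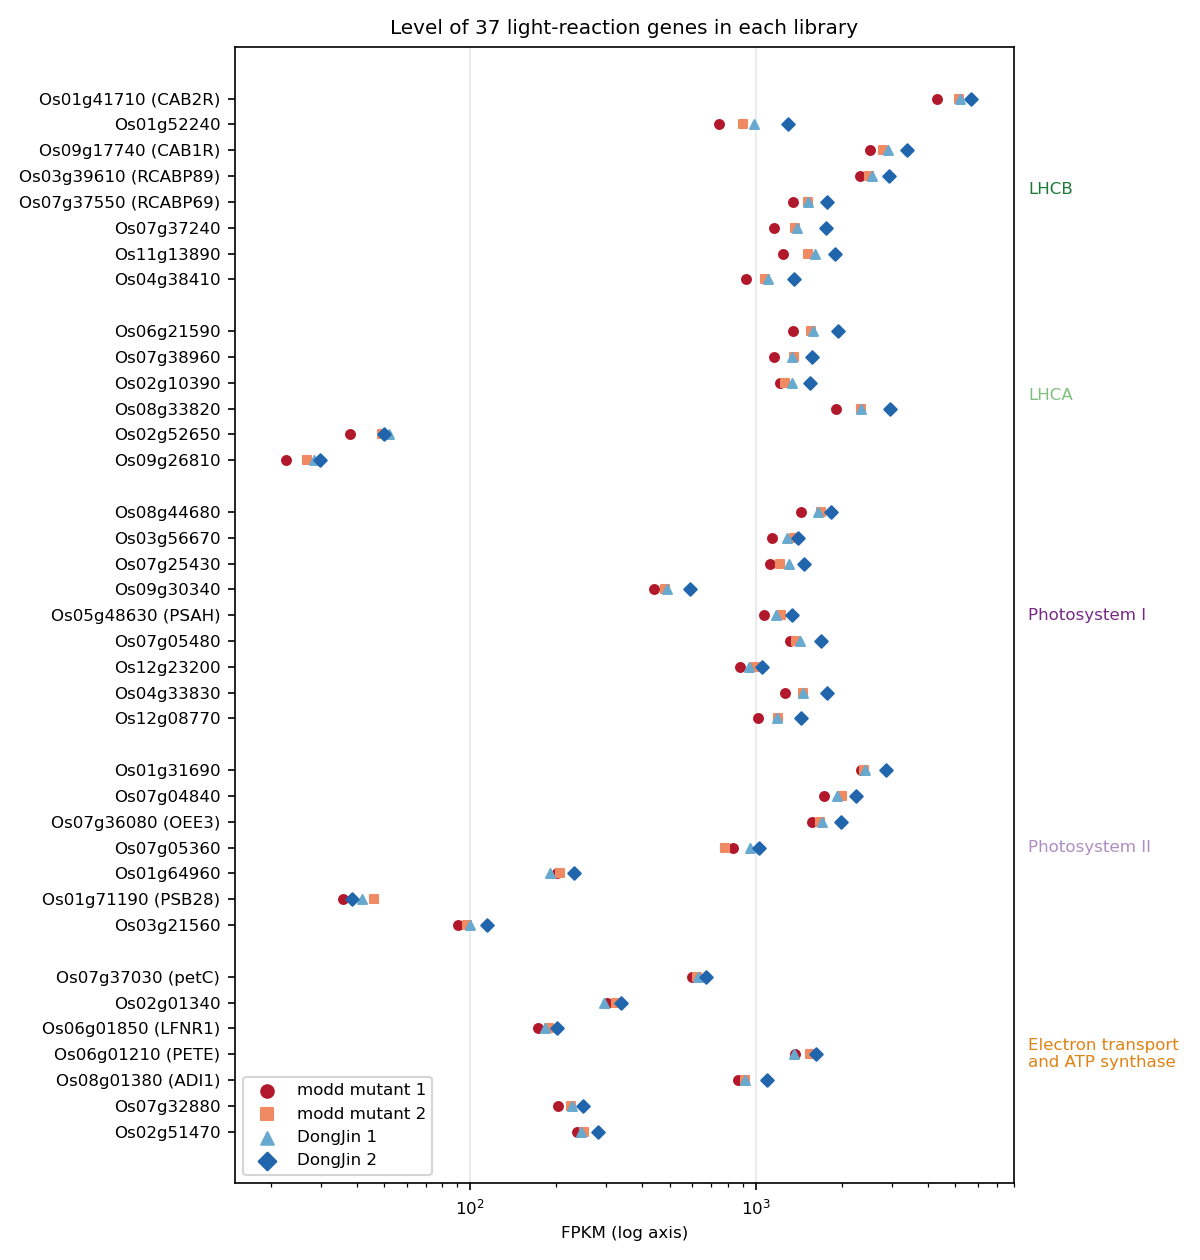
Level of each of the 37 detected light-reaction genes in FPKM (log axis), one row per gene, grouped by complex, with one symbol per library. Mutant-labelled replicate 1 was the lowest library for 33 of the 37 genes (21.6% of all tested genes) and DongJin replicate 2 the highest for 35 (23.5%).

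All 37 detected genes had log2 fold changes below 0 in the mutant-labelled libraries relative to DongJin, from -0.52 to -0.01 with a median of -0.24, a difference of -15.4%. None passed the quasi-likelihood test of edgeR (Benjamini-Hochberg adjusted p under 0.05), against 0.837% of the 19365 tested genes, and the smallest adjusted p was 0.178. At an unadjusted edgeR p under 0.05 there were 3 of the 37, all lower, against 1625 lower among the 19365 tested genes. In both directions the share of all tested genes was 16.8%. No light-reaction gene passed with DESeq2 (1.81% of all tested genes) or with limma on log2(FPKM + 1) (0.00516%). Over all tested genes the median log2 fold change was 0.00, and 49.4% of the values were below 0. Without composition factors (library totals only), 36 of the 37 were below 0, the exception being PSB28 (LOC_Os01g71190), at 0.03. Single genes were measured with standard errors from 0.117 to 0.178 on the log2 scale. The 95% intervals that lay below 0 were those of the same 3 genes with an unadjusted edgeR p under 0.05.

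The size of the difference hung on single libraries. In 22 of the 37 genes both mutant-labelled libraries lay below both DongJin libraries, against 21.1% of all tested genes, and in 0 of the 37 above both, against 28.6%. On a scale of library-scaled counts (CPM, with TMM factors) the number was again 22, against 25.6% of all tested genes. The median log2 fold change was -0.10 without DongJin replicate 2, -0.16 without mutant-labelled replicate 1 and -0.36 without DongJin replicate 1. The first 2 of these left 34 of the 37 genes below 0, and the third 36. Without DongJin replicate 1, 13 of the 37 passed the test, all lower, against 12.4% of all genes tested in that fit, where the lone DongJin library is assumed to vary like the other group.

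**Figure D2:**
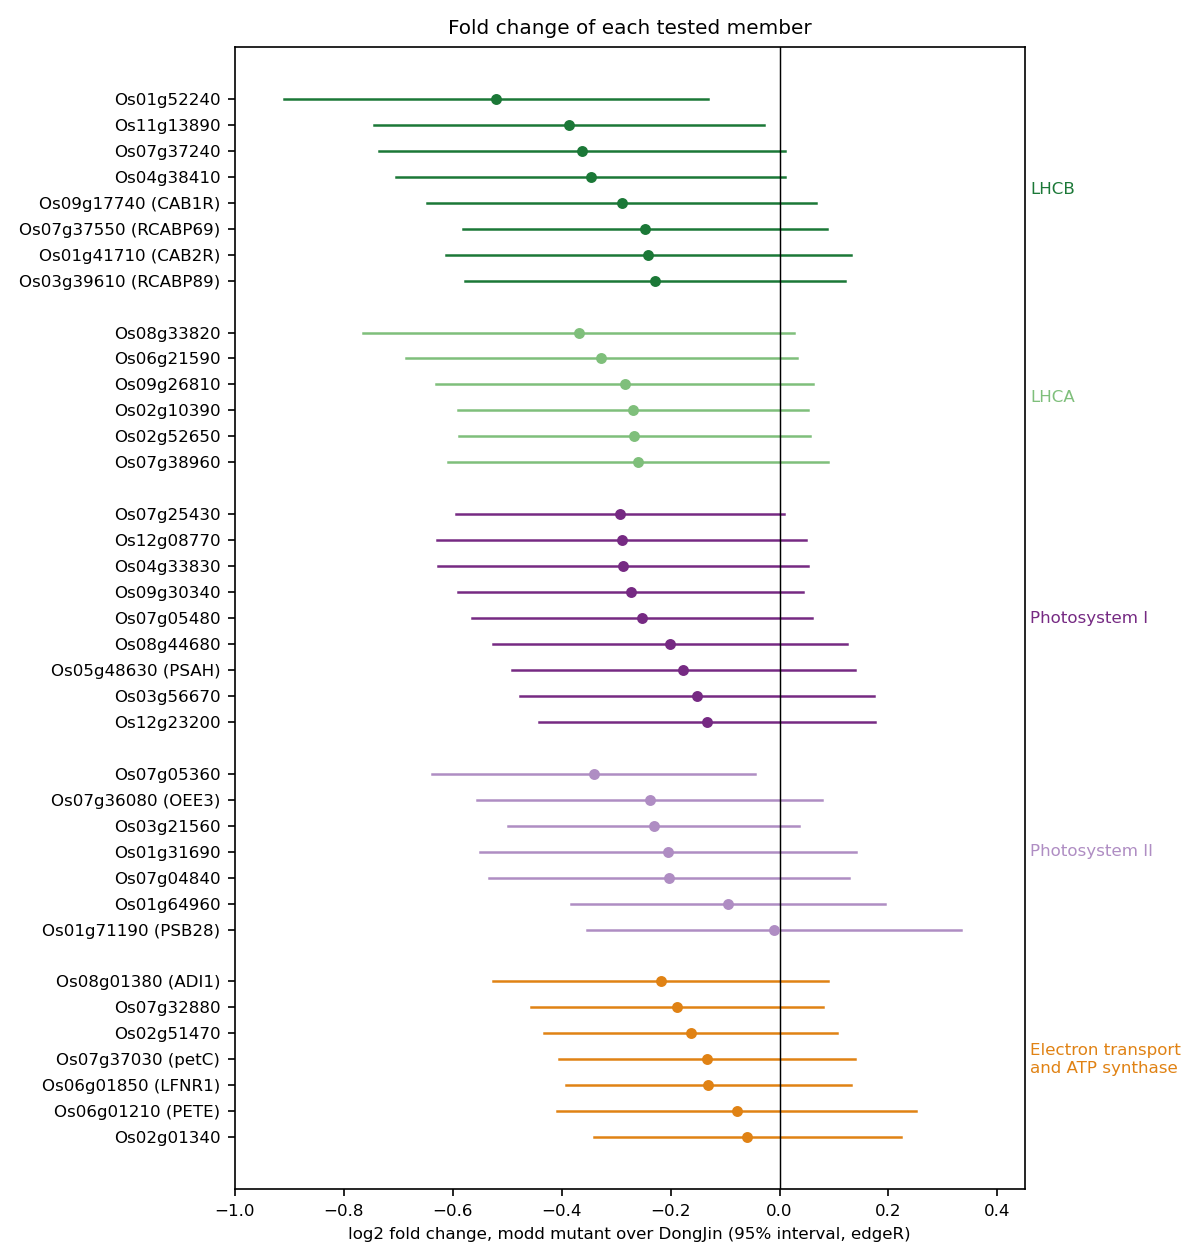
Log2 fold change of the mutant-labelled libraries over DongJin for each tested gene (points) with its 95% interval from edgeR (lines), sorted within complexes. All points lie below 0, from -0.52 to -0.01, and the intervals of 3 genes end below 0.

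The antenna of photosystem II had the lowest median of the complexes. The 8 LHCB genes had log2 fold changes from -0.52 to -0.23 with a median of -0.32, and 0 of 8 passed by edgeR (0.837% of all tested genes). At an unadjusted p under 0.05 there were 2 of 8, both lower, against 1625 lower among the 19365 tested genes (16.8% in both directions). LOC_Os01g52240 was at 742 and 899 FPKM in the mutant-labelled libraries, against 982 and 1298 FPKM in DongJin. Its groups did not overlap, and its log2 fold change was the lowest of the 37, at -0.52 (95% interval -0.91 to -0.13, edgeR adjusted p = 0.178). LOC_Os11g13890 was at 1243 and 1519 FPKM in the mutant-labelled libraries and 1619 and 1892 FPKM in DongJin, again without overlap (log2 fold change -0.39, 95% interval -0.74 to -0.03, edgeR adjusted p = 0.264). CAB2R, the most abundant, was at 4328 and 5140 FPKM in the mutant-labelled libraries, against 5204 and 5652 FPKM in DongJin. The gap between its groups, 5140 against 5204 FPKM, was smaller than the gap within either group, and its log2 fold change was -0.24 ± 0.167 (SE, edgeR adjusted p = 0.502).

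The other LHCB genes ran close to these. LOC_Os07g37240 was at 1157 and 1378 FPKM in the mutant-labelled libraries and 1398 and 1758 FPKM in DongJin (log2 fold change -0.36, edgeR adjusted p = 0.31). LOC_Os04g38410 was at 924 and 1075 FPKM against 1105 and 1358 FPKM in DongJin (log2 fold change -0.35, edgeR adjusted p = 0.311). CAB1R (LOC_Os09g17740), RCABP69 (LOC_Os07g37550) and RCABP89 (LOC_Os03g39610), further chlorophyll a/b-binding protein genes, had log2 fold changes of -0.29, -0.25 and -0.23. RCABP69 was the one LHCB gene whose groups overlapped, with 1348 and 1523 FPKM in the mutant-labelled libraries against 1522 and 1779 FPKM in DongJin. In the other 7 both mutant-labelled libraries were lower, against 21.1% of all tested genes. Estimated counts held fractions for CAB2R, CAB1R, RCABP89, RCABP69 and LOC_Os01g52240, which marks reads split among similar genes, so how these 5 differ from one another is uncertain. The 3 LHCB genes without fractions had log2 fold changes of -0.39, -0.36 and -0.35.

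The 6 LHCA genes comprised 4 of high abundance and 2 of low abundance, and their log2 fold changes lay close together, from -0.37 to -0.26 with a median of -0.28. None passed by edgeR, and none had an unadjusted p under 0.05. LOC_Os08g33820, the most abundant, was at 1906 and 2330 FPKM in the mutant-labelled libraries against 2343 and 2958 FPKM in DongJin. Mutant-labelled replicate 2 and DongJin replicate 1 were almost level, and the log2 fold change was -0.37 (95% interval -0.76 to 0.03, edgeR adjusted p = 0.33). LOC_Os06g21590 was at 1346 and 1559 FPKM against 1587 and 1949 FPKM in DongJin (log2 fold change -0.33, edgeR adjusted p = 0.341). The low pair, LOC_Os02g52650 and LOC_Os09g26810, rested on 124 to 318 reads per library. LOC_Os02g52650 was at 37.9 and 49.3 FPKM in the mutant-labelled libraries and 51.8 and 50.1 FPKM in DongJin, so that mutant-labelled replicate 1 was the library that stood low (log2 fold change -0.27, edgeR adjusted p = 0.389). LOC_Os09g26810 was at 22.6 and 26.8 FPKM against 28.5 and 29.9 FPKM in DongJin, and differed by -0.28 on the log2 scale (edgeR adjusted p = 0.391). Both low genes had fold changes within the range of the abundant LHCA genes.

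Photosystem I subunit genes were expressed at similar levels to one another, from 499 FPKM (LOC_Os09g30340) to 1655 FPKM (LOC_Os08g44680) averaged over the 4 libraries. Their 9 log2 fold changes ran from -0.29 to -0.13 with a median of -0.25, and 0 of 9 passed by edgeR or had an unadjusted p under 0.05. The groups overlapped for 6 of the 9, and did not for LOC_Os07g25430, LOC_Os09g30340 and LOC_Os07g05480, a share of 33.3% against 21.1% of all tested genes with the mutant-labelled libraries lower. LOC_Os07g25430 was at 1123 and 1218 FPKM in the mutant-labelled libraries, against 1304 and 1478 FPKM in DongJin (log2 fold change -0.29, 95% interval -0.59 to 0.01, edgeR adjusted p = 0.308). LOC_Os09g30340 was at 440 and 480 FPKM against 487 and 590 FPKM in DongJin (log2 fold change -0.27, edgeR adjusted p = 0.367). DongJin replicate 2 was the one high library for that gene. The most abundant subunit gene, LOC_Os08g44680, was at 1444 and 1686 FPKM in the mutant-labelled libraries and 1654 and 1835 FPKM in DongJin. Here mutant-labelled replicate 2 exceeded DongJin replicate 1, and the log2 fold change was -0.20 ± 0.146 (SE, edgeR adjusted p = 0.523). PSAH (LOC_Os05g48630), whose product is known in Arabidopsis as a docking site for mobile LHCB antenna, overlapped in the same way, at 1068 and 1229 FPKM against 1175 and 1342 FPKM in DongJin.

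Photosystem II subunit genes ranged in level from 40.6 FPKM (PSB28) to 2503 FPKM (LOC_Os01g31690) averaged over the 4 libraries. Log2 fold changes of the 7 tested ran from -0.34 to -0.01 around a median of -0.21, and 0 of 7 passed by edgeR. Against 1625 lower among the 19365 tested genes (16.8% in both directions), 1 of the 7 was lower at an unadjusted p under 0.05. That gene, LOC_Os07g05360, was at 833 and 783 FPKM in the mutant-labelled libraries, against 957 and 1028 FPKM in DongJin. It was the one light-reaction gene in which mutant-labelled replicate 2 was lower than replicate 1, and its groups were apart (log2 fold change -0.34, 95% interval -0.64 to -0.04, edgeR adjusted p = 0.239). LOC_Os03g21560 was at 90.4 and 97.9 FPKM against 99.9 and 114 FPKM in DongJin (log2 fold change -0.23, edgeR adjusted p = 0.364). LOC_Os01g31690, the most abundant, was at 2331 and 2399 FPKM in the mutant-labelled libraries and 2420 and 2862 FPKM in DongJin, where a single library, DongJin replicate 2, stood high (log2 fold change -0.21, edgeR adjusted p = 0.541). OEE3 (LOC_Os07g36080), an extrinsic protein of the water-splitting complex, was at 1571 and 1675 FPKM against 1702 and 1997 FPKM in DongJin (log2 fold change -0.24, edgeR adjusted p = 0.433).

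The 2 genes nearest to 0 in this complex were PSB28, known in cyanobacteria as a protein bound during photosystem II assembly, and LOC_Os01g64960. PSB28 was at 35.9 and 46.2 FPKM in the mutant-labelled libraries and 41.9 and 38.5 FPKM in DongJin, from 178 to 230 reads per library. Both DongJin values lay between the 2 values labelled modd mutant, and the log2 fold change was -0.01 (95% interval -0.35 to 0.33, edgeR adjusted p = 0.981). LOC_Os01g64960 was at 202 and 206 FPKM against 191 and 232 FPKM in DongJin, and differed by -0.09 on the log2 scale (edgeR adjusted p = 0.754). The photosystem II median was -0.05 without DongJin replicate 2 and -0.35 without DongJin replicate 1.

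Genes of electron transport and ATP synthase had the median nearest to 0, at -0.13, with 7 values from -0.22 to -0.06, none passing by edgeR and none with an unadjusted p under 0.05. ADI1 (LOC_Os08g01380), a ferredoxin gene, was at 866 and 918 FPKM in the mutant-labelled libraries, against 919 and 1092 FPKM in DongJin. DongJin replicate 2 stood above the other libraries, which were nearly level (log2 fold change -0.22 ± 0.138, SE, edgeR adjusted p = 0.459). LOC_Os07g32880 was at 203 and 226 FPKM against 227 and 247 FPKM in DongJin (log2 fold change -0.19, edgeR adjusted p = 0.461). PETE (LOC_Os06g01210), coding for plastocyanin, the copper protein that feeds photosystem I, was the most abundant of the 7, at 1373 and 1552 FPKM in the mutant-labelled libraries and 1366 and 1628 FPKM in DongJin. Its groups overlapped fully (log2 fold change -0.08, 95% interval -0.41 to 0.25, edgeR adjusted p = 0.826). The Rieske iron-sulfur protein gene petC (LOC_Os07g37030) and LFNR1 (LOC_Os06g01850), for a leaf ferredoxin-NADP reductase, both had log2 fold changes of -0.13, with edgeR adjusted p of 0.622 and 0.614.

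Set side by side, the complex medians were graded, at -0.32 for LHCB, -0.28 for LHCA, -0.25 for photosystem I, -0.21 for photosystem II and -0.13 for electron transport and ATP synthase. Each of the 8 LHCB values (-0.23 or lower) was below each of the 7 electron transport and ATP synthase values (-0.22 or higher), a narrow gap next to standard errors of 0.117 to 0.178 for single genes. That separation was lost without mutant-labelled replicate 1 or without DongJin replicate 1. Over 14 alternative settings the electron transport and ATP synthase median was nearest to 0 in 14 and the LHCB median was lowest in 13. The exception was the fit without mutant-labelled replicate 2, where LHCA was at -0.44 and LHCB at -0.43. Most of the 14 settings refit the same 4 libraries and move all genes nearly alike, so the order could hardly change there. It could change mainly in the fits that leave out a library. Sizes shifted with the DongJin library kept: without DongJin replicate 2 the medians were -0.15 for LHCB and -0.02 for electron transport and ATP synthase, and without DongJin replicate 1 they were -0.47 and -0.23.

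**Figure D3:**
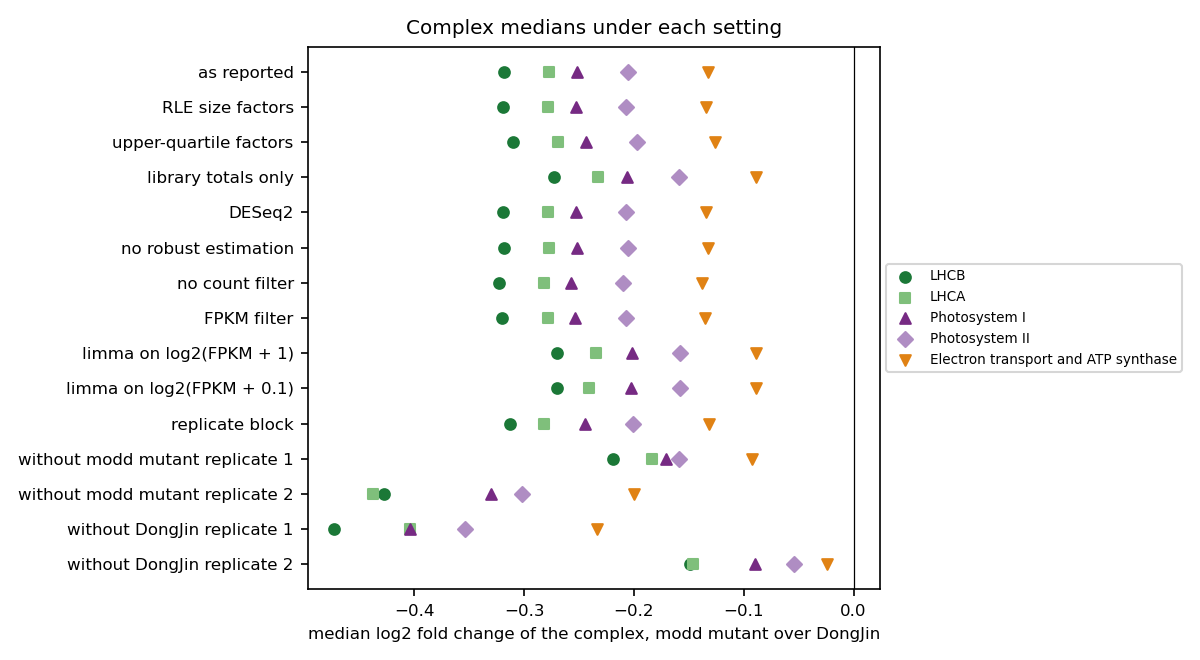
Median log2 fold change of each complex, libraries labelled modd mutant over DongJin, as reported and under 14 alternative settings, one row per setting. The electron transport and ATP synthase median stays nearest to 0 in all 14, most of which refit the same 4 libraries. All medians move toward 0 without DongJin replicate 2.

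Ratios between complexes within a library do not depend on how the library is scaled. Summed LHCB over summed photosystem I FPKM was 1.50 and 1.53 in the mutant-labelled libraries and 1.58 and 1.59 in DongJin, a gap wider than the spread within either group. The corresponding ratio of LHCB to electron transport and ATP synthase was 3.89 and 4.12 in the mutant-labelled libraries, against 4.48 and 4.50 in DongJin, also without overlap. LHCA over photosystem I was 0.586 and 0.598 in the mutant-labelled libraries, against 0.613 and 0.643 in DongJin, a gap narrower than the spread within DongJin. Photosystem I over electron transport and ATP synthase was 2.59 and 2.70 in the mutant-labelled libraries, against 2.83 and 2.83 in DongJin. Each of these 4 ratios was thus lower in both mutant-labelled libraries, and stayed so when counts were summed in place of FPKM and when the most abundant gene of each complex was left out. The 4 share complexes, so they are not independent of one another. Without the most abundant genes, photosystem I over electron transport and ATP synthase was 3.47 and 3.70, against 3.72 and 3.81 in DongJin. That gap was narrower than the spread within either group. The size for LHCA over photosystem I, a log2 ratio of -0.0856 between groups, was -0.0503 without DongJin replicate 2 and -0.053 without the most abundant genes.

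The other 3 ratios computed overlapped between groups under at least 1 of these ways of summing. LHCB over photosystem II was 2.15 and 2.33 in the mutant-labelled libraries and 2.36 and 2.35 in DongJin, and with summed counts the groups overlapped. The 2 photosystems kept no ordered ratio, with photosystem I over photosystem II at 1.43 and 1.53 in the mutant-labelled libraries and 1.49 and 1.48 in DongJin. LHCB over LHCA was 2.57 and 2.55 in the mutant-labelled libraries and 2.58 and 2.47 in DongJin, with overlap. No p is given for these sums over chosen genes, and an exact permutation test of 2 libraries against 2 cannot go below 0.333.

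**Figure D4:**
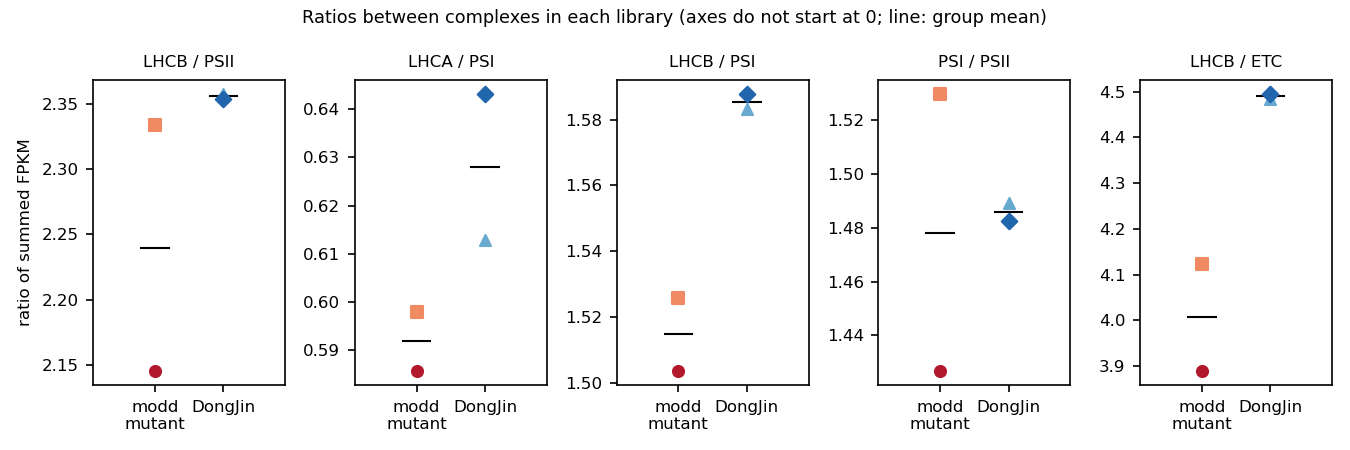
Ratio of summed FPKM between complexes in each library, with the mutant-labelled libraries left of DongJin, circle and square for mutant-labelled replicates 1 and 2, triangle and diamond for DongJin replicates 1 and 2, and lines for group means; ETC stands for electron transport and ATP synthase, and the axes do not start at 0. LHCB over PSI was 1.50 and 1.53 against 1.58 and 1.59 in DongJin, while PSI over PSII overlapped.

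Differences within a group were of the same order as those between groups. Replicate 2 exceeded replicate 1 in 36 of the 37 genes in the mutant-labelled libraries, by a median of 0.18 on the log2 scale, and in 35 of the 37 in DongJin, by a median of 0.22. The medians over all tested genes were -0.03 and -0.06. Between single libraries of the 2 groups, mutant-labelled replicate 1 gave medians of -0.18 against DongJin replicate 1, with 34 of 37 genes below 0, and -0.36 against DongJin replicate 2, with 37 of 37 below 0. Mutant-labelled replicate 2 gave -0.01 against DongJin replicate 1, with 22 of 37 below 0, and -0.225 against DongJin replicate 2, with 36 of 37 below 0. In 13 of 37 genes the FPKM gap between the DongJin libraries was larger than the edgeR fold change, against 50.8% of all tested genes. By complex these were 0 of 8 LHCB, 0 of 6 LHCA and 4 of 9 photosystem I genes. For photosystem II they were 4 of 7, and for electron transport and ATP synthase 5 of 7. Only the fold change uses TMM factors, so these counts, 0 for the antennas included, depend on the scale. With FPKM on both sides (limma on log2(FPKM + 1)), the gap was larger for some antenna genes too. LOC_Os07g37240 had a gap of 0.33 against a log2 fold change of -0.312, and LOC_Os08g33820 0.336 against -0.321.

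**Figure D5:**
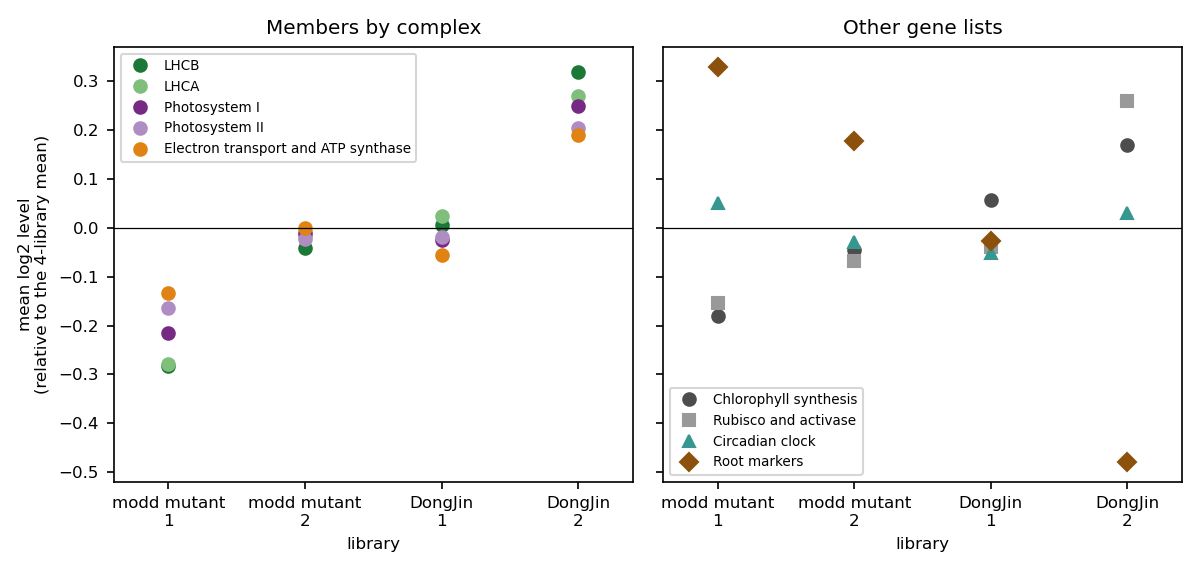
Mean log2 level in each library relative to the mean of the 4 libraries, for the members of each complex (left panel) and for other gene lists (right panel). LHCB lay at -0.28 and -0.04 in the mutant-labelled libraries and at 0.01 and 0.32 in DongJin. The 2 tested root markers ran the other way.

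The 2 tested root markers ranked the libraries in the order opposite to the light-reaction genes. Of 6 root markers, 3 were listed in no library (NRT2.1, YSL15 and LOC_Os03g01700). IRT1, under 0.5 FPKM in each library, did not share that order, at 0.37 and 0.25 FPKM against 0.37 and 0.49 FPKM in DongJin. The 2 tested were LOC_Os02g51110, on 78 to 108 reads per library, and HKT2;1 (LOC_Os06g48810), on 22 to 57. Neither passed by edgeR (adjusted p of 0.557 and 0.2). The 6 summed to 19.4 and 17.2 FPKM in the mutant-labelled libraries and 15.8 and 12.2 FPKM in DongJin. The mean log2 level of the 2 tested was 0.33 and 0.18 in the mutant-labelled libraries, against -0.03 and -0.48 in DongJin. Their part in the result was not tested, and in bulk tissue fewer green cells and less transcript per cell cannot be told apart. Of 9 clock genes 8 were tested, and 0 passed by edgeR. Their log2 fold changes ran from -0.14 to 0.21, with 4 below 0 and 4 above. Both mutant-labelled libraries lay above both DongJin libraries in 3 of the 8 (28.6% of all tested genes), and below both in 1 (21.1%). Their mean log2 levels did not follow the order of the light-reaction genes, at 0.05 and -0.03 in the mutant-labelled libraries and -0.05 and 0.03 in DongJin. Opposite changes cancel in such a mean, and a difference in the clock was not tested. Of the 3 senescence markers 0 passed by edgeR, and they did not share a direction. NYC1 (LOC_Os01g12710) and SGR (LOC_Os09g36200) had log2 fold changes of -0.29 and -0.81, and LOC_Os03g21060 was at 8.82 and 7.16 FPKM in the mutant-labelled libraries against 4.75 and 5.60 FPKM in DongJin (log2 fold change 0.58, edgeR adjusted p = 0.218). Their sum, most of it NYC1, was 87.9 and 80.1 FPKM in the mutant-labelled libraries and 102 and 98.6 FPKM in DongJin, while their mean log2 level overlapped between groups, at 0.07 and -0.25 in the mutant-labelled libraries and 0.03 and 0.16 in DongJin. The meristem marker OSH1 was at most 0.66 FPKM in a library, and the panicle marker MADS14 had a log2 fold change of -0.01.

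Genes that serve the light reactions from outside the complexes did not move as one. The 11 chlorophyll synthesis genes had log2 fold changes from -0.45 to -0.02 with a median of -0.29, 0 passing by edgeR, and 7 of the 11 had both mutant-labelled libraries below both DongJin libraries, against 21.1% of all tested genes. By edgeR 5 of the 11 had an unadjusted p under 0.05, all lower, against 1625 lower among the 19365 tested genes (16.8% in both directions). CHLD (LOC_Os03g59640) had the smallest adjusted p of the 11 (edgeR, 0.144). Its log2 fold change was -0.34, with 46.3 and 45.8 FPKM in the mutant-labelled libraries against 60.3 and 52.8 FPKM in DongJin. PORA (LOC_Os04g58200), a light-dependent protochlorophyllide reductase gene, was at 867 and 802 FPKM in the mutant-labelled libraries against 1067 and 1047 FPKM in DongJin (log2 fold change -0.38, edgeR adjusted p = 0.169). Among 6 genes of photoprotection and regulation, 3 had log2 fold changes below 0 and 3 above, with a median of 0.00 and 0 passing by edgeR. GLK2 (LOC_Os01g13740), of the GOLDEN2-like family of transcription factors that activate antenna and chlorophyll synthesis genes, was at 121 and 115 FPKM in the mutant-labelled libraries and 89.6 and 81.6 FPKM in DongJin. Its groups did not overlap, in the direction opposite to the antenna genes (log2 fold change 0.40 ± 0.103, SE, edgeR adjusted p = 0.0984). GLK1 (LOC_Os06g24070) overlapped, at 180 and 155 FPKM against 135 and 163 FPKM in DongJin (edgeR adjusted p = 0.693). The 4 tested Rubisco small-subunit and activase genes had log2 fold changes from -0.42 to -0.09, 0 passing by edgeR.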

How the data were processed

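The tables deposited by the authors give, per the file headers, expected counts (estimated reads per gene, with fractions where a read matched several genes), their FPKM values, scaled by transcript length and library size, and the transcript length in bases. BWA, Bowtie and RSEM appear in the submitters' processing notes with no version. The build is not given in the sources used here. Genes without a row were counted as 0.

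The main test was edgeR 4.0.16 (R 4.3.3) on rounded expected counts (filterByExpr with a minimum count of 10 and total of 15, TMM factors of 0.964 to 1.02, robust quasi-likelihood test without covariates), with Benjamini-Hochberg adjustment over 19365 genes and a threshold of 0.05. Standard errors are the absolute log2 fold change divided by the square root of F. The steps were tested on simulated data with changes larger than those of the light-reaction genes. Whether changes as small as theirs would be called was not tested. DESeq2 1.42.0 and limma 3.58.1 served as alternatives. Libraries of a group differed beyond sampling noise (chi-square per degree of freedom 2.54 mutant-labelled, 4.5 DongJin), so all were kept. The members and lists were chosen with earlier results of these data known. Values in every library are given for the 2 genes with the smallest adjusted p and the most abundant gene of each complex, with other members named where their pattern differed.

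No file identifier occurs in the RefSeq gene table (assembly ASM3414082v1). Names are given for 11 members whose common rice name stands there on the chromosome of the locus; the others go by locus and complex. Of 42 symbols in the further lists, 28 were found that way.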

Additional observations from a re-analysis of the deposited data

How the results depend on the processing

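Over all genes, 162 were called (97 higher, 65 lower). The number was 102 with factors from the upper quartile, 350 with DESeq2 (160 higher and 190 lower) and 764 with no count filter. With limma it was 1 on log2(FPKM + 1) and 1 on log2(FPKM + 0.1), where 3126 and 3091 genes had an unadjusted p under 0.05. Leaving out single libraries gave 144 to 2483. Light-reaction genes called numbered 0 with the other normalizations, filters and tools, and 0 to 13 with single libraries left out. With the replicate number as a block, 870 genes were called, 4.49% of the 19365 tested. Of the 37 light-reaction genes 4 were called, all lower (LOC_Os01g52240, LOC_Os07g37240, LOC_Os11g13890 and LOC_Os08g33820). The labels give no basis for pairing, and over all tested genes same-numbered libraries deviated with a correlation of 0.0126. The light-reaction genes did deviate together. Replicate 2 exceeded replicate 1 in 36 of 37 in the mutant-labelled libraries and 35 of 37 in DongJin.

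With single libraries left out, the median log2 fold change ran from -0.36 to -0.095 over all members and from -0.35 to -0.054 for photosystem II. The log2 ratio between groups ran from -0.135 to -0.0132 for LHCB over photosystem II, -0.0584 to 0.042 for photosystem I over photosystem II, -0.207 to -0.123 for LHCB and -0.131 to -0.0673 for photosystem I over electron transport and ATP synthase, -0.12 to -0.0503 for LHCA and -0.0765 to -0.0553 for LHCB over photosystem I, and -0.0134 to 0.0522 for LHCB over LHCA. Leaving out the most abundant gene of each complex gave -0.0816 for LHCB over photosystem I, against -0.0658, and -0.0285 for LHCB over LHCA, against 0.019. Of 37 genes, 33 stayed below 0 under all 14 alternatives. PSB28 was at 0.0315 with library totals only, at 0.0205 and 0.0207 with limma at the larger and the smaller pseudocount, and ran from -0.216 to 0.171 with single libraries left out. LOC_Os01g64960 then ran from -0.261 to 0.0889, LOC_Os02g01340 from -0.189 to 0.0798 and PETE (LOC_Os06g01210) from -0.233 to 0.0882. The CPM scale was chosen after seeing the data, and gave the same count of 22 genes without overlap. Where values changed, the cause was not tested. Depth was lowest for LOC_Os09g26810, at 124 to 166 reads per library.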
